A study of Mus musculus with 9 samples.

Results

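The class that the authors named common myeloid progenitor held 193 of the 4310 barcode columns in the blood table, and its columns were taken by that name in their headers. Seq-Well, a nanowell method that tags polyA RNA with a barcode for each well, had been run on blood (labelled PBMC) of female 129SvE mice in a study of a rheumatoid arthritis mouse model. The groups used here were 4 healthy mice, all at disease stage 0, and 5 arthritic mice, of which mice 1 and 4 were at stage 1.5, mouse 3 at stage 2, mouse 5 at stage 1.5 to 2 and mouse 6 at stage 2 to 2.5. Neither the ages nor the agent that brought on arthritis is stated in the labels. Arthritic mouse 1 held 83 columns of the class, arthritic mouse 3 held 53, arthritic mouse 4 held 21 and arthritic mouse 5 held 33. Healthy mice 2 and 4 and arthritic mouse 6 held 1 column each, and healthy mice 1 and 3 held 0. Gene levels were therefore described in arthritic mice 1, 3, 4 and 5, and the single columns by their values alone.

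Common myeloid progenitors are cells of the bone marrow that can give rise to red cells, platelets, granulocytes and monocytes. Along the erythroid branch, the transcription factors GATA1, TAL1 and KLF1 switch on carbonic anhydrases, heme synthesis, the membrane skeleton and lastly the globins, while the cells go on dividing. Along the granulocyte branch, the azurophil (primary) granule proteins such as myeloperoxidase (Mpo), neutrophil elastase (Elane), proteinase 3 (Prtn3) and cathepsin G (Ctsg) are transcribed at the promyelocyte stage. The secondary granule proteins, such as lactoferrin (Ltf), follow later. The names given as markers of this class, Car1, Car2, Nfia, Pklr, Mpo and Elane, thus span both branches. In the data, Car1, Car2, Nfia and Pklr were higher in the class in all 4 mice, whereas Mpo and Elane were not. The class was defined from the same cells, so these levels do not bear the label out. Of 193 columns, 152 gave at least 0.1% of their signal to early erythroid genes and less than that to the granule proteases. By these shares, most columns stood on the erythroid branch alone.

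Promoter sequence is shown for genes of either branch that the values below turn on, 3 erythroid and 2 granulocytic. The stretches come from RefSeq (GRCm38.p6), run 5′ to 3′ on the gene's strand and end at the base before its first annotated exon. Capitals mark GATAA (the core of the GATA motif), CACCC (the core bound by KLF1 and other KLF or SP factors) and GAGGAA (a core bound by PU.1 and other ETS factors), each looked for on both strands. No match overlapped another.
Pklr, chr3:89135892-89136141, plus strand: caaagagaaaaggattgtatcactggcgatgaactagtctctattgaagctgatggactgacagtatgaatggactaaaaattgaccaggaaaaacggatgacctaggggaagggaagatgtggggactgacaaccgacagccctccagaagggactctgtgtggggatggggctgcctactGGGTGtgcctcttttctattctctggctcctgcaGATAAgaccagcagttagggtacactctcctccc
Klf1, chr8:84901732-84901927, plus strand: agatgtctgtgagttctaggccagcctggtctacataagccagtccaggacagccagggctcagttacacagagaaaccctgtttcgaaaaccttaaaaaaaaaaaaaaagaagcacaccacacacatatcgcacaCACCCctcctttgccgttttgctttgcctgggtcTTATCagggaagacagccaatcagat
Tal1, chr4:115056176-115056425, plus strand: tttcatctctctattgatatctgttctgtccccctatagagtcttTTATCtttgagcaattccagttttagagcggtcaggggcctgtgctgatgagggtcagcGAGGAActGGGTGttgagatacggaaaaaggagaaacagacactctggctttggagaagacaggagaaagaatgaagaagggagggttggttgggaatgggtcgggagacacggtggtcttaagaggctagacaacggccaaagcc
Ctsg, chr14:56102575-56102824, minus strand: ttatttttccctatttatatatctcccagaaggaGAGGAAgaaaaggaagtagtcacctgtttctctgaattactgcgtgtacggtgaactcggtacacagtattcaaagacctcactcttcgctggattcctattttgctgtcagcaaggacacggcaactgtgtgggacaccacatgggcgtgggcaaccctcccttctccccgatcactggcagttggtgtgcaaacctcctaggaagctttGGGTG
Elane, chr10:79886062-79886246, plus strand: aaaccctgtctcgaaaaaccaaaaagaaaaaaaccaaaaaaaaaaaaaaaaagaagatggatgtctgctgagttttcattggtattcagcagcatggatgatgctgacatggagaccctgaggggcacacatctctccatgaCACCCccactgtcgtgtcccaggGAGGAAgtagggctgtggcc
The letters GATAA stood 34 bases before the RefSeq start in Pklr, and in reverse complement 80 bases before it in Klf1 and 205 bases before it in Tal1. They were not in the windows of Ctsg and Elane. GAGGAA was in Tal1 (146 bases before the start), Ctsg (216) and Elane (85), and CACCC in all 5 windows. Over the 250 bases before the start of 27025 genes, 23.0% held GATAA, 51.3% held CACCC and 23.1% held GAGGAA, so each motif is common by its letters alone. The 5 genes shown were picked and do not stand for their branches. In the same 250 bases, 5 of 13 early erythroid genes and 1 of 15 primary granule genes held GATAA. For GAGGAA the counts were 4 of 13 and 7 of 15. Of the 9131 genes compared below, 14.4% of those with a promoter held GATAA and 23.0% GAGGAA. Among those called higher in the class, 39 of 197 held GATAA and 36 of 197 GAGGAA. A match is a description and not a bound site.

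Columns of the class held between 8796 and 43633 units of signal (median 18742) over 1898 to 8209 of 23499 genes, and their medians were 23488, 21841, 15136 and 15147 in arthritic mice 1, 3, 4 and 5. The signal is whole-numbered, but a column may pool several like cells, so it was not handled as a count per cell. Of the 193 columns, 46 were identical to another column, which left 167 distinct profiles. Profiles were also shared between mice: 5 between arthritic mice 1 and 3, 3 between mice 4 and 5 and 1 between mice 1 and 4, so that 19 columns had a twin in another mouse. None was identical to a column of another class, and no barcode of the class occurred in more than 1 mouse. The mice are therefore less independent than separate animals would be, and the class share and the counts of called genes are also given below with such columns left out.

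The class made up 8.08% of columns in arthritic mouse 1 (exact binomial 95% interval 6.49 to 9.92%), 5.50% in mouse 3, 2.91% in mouse 4, 6.57% in mouse 5 and 0.126% in mouse 6. In the healthy mice it made up 0.498% of 201 columns in mouse 2 and 2.22% of 45 columns in mouse 4, and 0 of 30 and 0 of 26 columns in mice 1 and 3, where a count of 0 allows a share of up to 11.5% in mouse 3 and little less in mouse 1. These limits and the interval cover counting error only. Arthritic mouse 6 lay inside the healthy range, and the other 4 arthritic mice lay above it. The mean share was 4.64 ± 3.15% (SD, n = 5) in arthritic and 0.680 ± 1.05% (SD, n = 4) in healthy mice, a difference of 3.96 percentage points (two-sided exact permutation test over 126 splits, p = 0.0476; 0.286 after Benjamini-Hochberg adjustment over 6 classes). The difference was higher in the arthritic group under every alternative, but the exact permutation p rose above 0.05 when columns shared with another mouse were left out (p = 0.119) and in 8 of 9 tests that each left out 1 mouse. Healthy mice held 26 to 201 columns against 502 to 1027 in arthritic mice, and the class is a share of columns rather than a count of cells per volume of blood.

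Against all other columns of the same mouse, 294 of 9131 genes were higher in the class and 999 were lower, where a gene was called if it differed by at least 1 on the log2 scale in the same direction in each of the 4 mice. The unit is signal per 1000000 after scaling by TMM factors, here abbreviated SPM, and differences are of log2(SPM + 1). No test was made, since the class was defined from the same cells. The balance depends on the scaling: 22.7% of called genes were higher with TMM, 39.3% (515 higher, 797 lower) with median-of-ratios factors and 64.7% (967 higher, 527 lower) with total signal, and the median over all genes moved from -0.06 to 0.11 and 0.40. Total signal in place of TMM raises the class against the other columns in each of the 4 mice, so it can add genes called higher and remove genes called lower. Of the 107 listed or named genes called lower, median-of-ratios factors kept 95 and total signal kept 74. List counts below are with TMM. Counts with the other scalings stand beside those that moved most, and shifts of a few genes are not all given. Because each sum pools many cells, fewer cells of a type and less RNA per cell cannot be told apart.

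Early erythroid transcripts set the class apart from the other columns in all 4 mice. Of the 18 listed genes, 17 passed the filter on low signal (at least 10 SPM in 4 of 8 sums), 10 were called higher and 1 lower, against 3.22% higher and 10.9% lower over all genes. Called higher were Car1, Car2, Epor, Blvrb, Pklr, Tfr2, Cldn13, Ces2g, Samd14 and Hemgn, and lower was Apoe, which was not called with total signal. With median-of-ratios factors 12 were higher and with total signal 13. The median over the 18 genes was 4.18, 4.29, 1.75 and 1.03 on the log2 scale in arthritic mice 1, 3, 4 and 5, where the medians over all genes were 0.12, 0.07, -0.13 and -0.18.

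Car1 (chromosome 3, 14766216 to 14808368, minus strand, GRCm38) encodes a cytosolic carbonic anhydrase of the erythroid lineage. It stood at 1368, 1274, 538 and 603 SPM in the class of arthritic mice 1, 3, 4 and 5, and at 31.6, 15.8, 80.1 and 163 SPM in their other columns. The lowest class value exceeded the highest value of the other columns, and the difference was 4.06 ± 2.09 on the log2 scale (SD, n = 4). Its neighbour Car2 (chromosome 3, 14886273 to 14900770, plus strand), the faster carbonic anhydrase, read 4204, 3954, 5482 and 12512 SPM in the class and 148, 87.5, 1595 and 5918 SPM elsewhere. Here the groups overlapped across mice, although the class was higher within each of them, by 3.29 ± 2.18. In mouse 5 the other columns carried much Car2 too, and these were columns in which globin took a median of 54.8% of granulocyte signal.

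Pklr, whose red-cell isoform is the pyruvate kinase of erythrocytes, was the called gene with the largest smallest difference. It read 148, 107, 33.3 and 46.6 SPM in the class against 2.45, 2.75, 3.41 and 5.58 SPM in the other columns (log2 difference 4.02 ± 1.31, SD, n = 4). Tfr2, the transferrin receptor that senses iron and binds the erythropoietin receptor, read 32.4, 26.7, 33.3 and 44.0 SPM against 2.36, 1.45, 5.20 and 6.38 SPM. Tmem56, Smim1 (which carries the Vel blood group), Slc38a5 (a glutamine transporter), Stard10, Sdsl, Gdpd1, Pla2g12a, Myh10, Col5a1, Suv39h2, Tspan4 and Chchd6 completed the 15 genes most steadily higher, with mean differences from 2.01 (Chchd6) to 3.46 (Tmem56). In none of these 15 except Car1 did the class exceed 150 SPM.

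**Figure D1:**
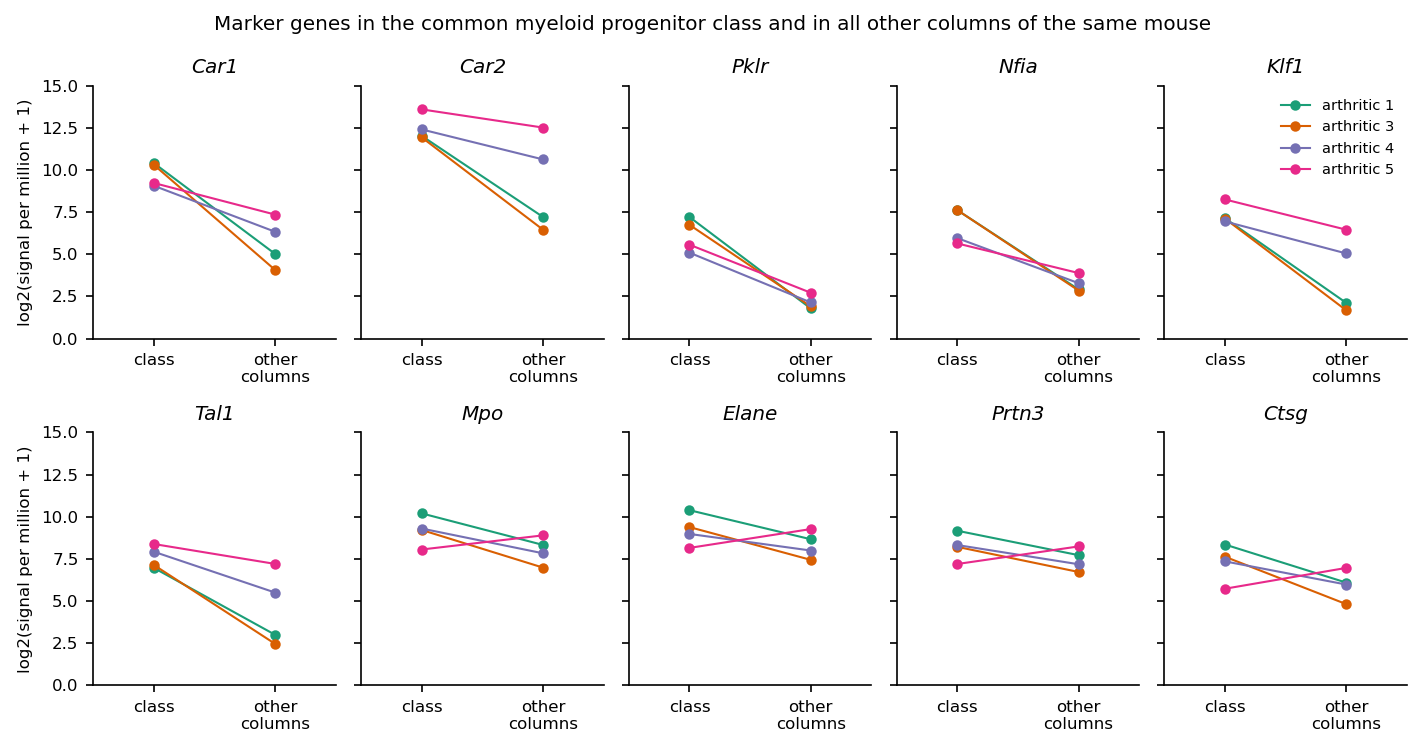
Levels of 10 genes, as log2(SPM + 1), in the common myeloid progenitor class and in all other columns of arthritic mice 1, 3, 4 and 5, where each line joins the values of 1 mouse. Car1, Car2, Pklr, Nfia, Klf1 and Tal1 fall from the class to the other columns in all 4 mice, while Mpo, Elane, Prtn3 and Ctsg fall in mice 1, 3 and 4 and rise in mouse 5.

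The erythroid transcription factors followed. Of 12, all passed the filter, 4 were called higher (Klf1, Tal1, Zfpm1 and Nfia) and 0 lower, and 9 were higher in every mouse. The count called higher was 7 with median-of-ratios factors and 9 with total signal. The median over the list was 2.77, 3.05, 1.23 and 0.94 in mice 1, 3, 4 and 5. Klf1, which activates adult beta-globin, read 140, 138, 123 and 305 SPM in the class and 3.32, 2.18, 32.2 and 87.2 SPM in the other columns. All class values lay above all others, and the difference was 3.54 ± 1.96. Tal1, a partner of GATA1, read 123, 139, 241 and 331 SPM against 6.91, 4.44, 44.0 and 145 SPM. Nfia, a nuclear factor I protein that favours the erythroid over the granulocytic fate, read 196, 197, 61.5 and 49.2 SPM against 6.56, 6.22, 8.77 and 13.8 SPM (log2 difference 3.48 ± 1.50). Its class level was higher in mice 1 and 3 than in mice 4 and 5, the reverse of Tal1. Lmo2, the bridging factor that stem cells also express, differed by 1.19 ± 0.25 and was not called.

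Heme synthesis and the membrane skeleton were higher as well, more so in mice 1 and 3. Of the 16 heme and iron genes, 15 passed the filter, 14 were higher in every mouse and 4 were called (Alad, Cpox, Steap3 and Abcb10), where median-of-ratios factors gave 10 and total signal 12. Alad, the enzyme that joins aminolevulinate into porphobilinogen, read 460, 413, 556 and 1154 SPM against 34.2, 30.1, 133 and 455 SPM. Of the 18 membrane genes, all passed, 17 were higher in every mouse and 8 were called: Gypc, Sptb, Ank1, Rhag, Kel, Icam4, Dmtn and Add2. Median-of-ratios factors gave 13 and total signal 15. Ermap, the Scianna blood group protein, read 390, 280, 504 and 820 SPM against 11.0, 5.74, 121 and 432 SPM. Slc4a1 (the band 3 anion exchanger) read 122, 134, 873 and 1827 SPM against 11.1, 9.29, 337 and 1101 SPM. In mice 4 and 5 Ermap and Slc4a1 were therefore also abundant in the other columns, and neither was called with TMM.

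Globin and late erythroid genes did not separate the class from the rest. Of 9 globin genes, 7 passed the filter and 0 were called in either direction. Hbb-bs, an adult beta-globin, read 14914, 19229, 155593 and 431919 SPM in the class and 3741, 2587, 338980 and 769018 SPM in the other columns, so it was higher in the class of mice 1 and 3 and lower in the class of mice 4 and 5. Hba-a1 and Hbb-bt showed the same turn, and the near-identical copies Hba-a1 and Hba-a2, and Hbb-bs and Hbb-bt, can share reads. Of 17 late erythroid genes, 16 passed, 1 was called higher and 0 lower, while 4 were higher with median-of-ratios factors and 5 with total signal. The gene called with TMM was Prdx2, an abundant peroxiredoxin of red cells, at 858, 824, 1234 and 2823 SPM against 83.8, 73.7, 388 and 1300 SPM.

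Transcripts of dividing cells were higher in the class. All 30 cell cycle and replication genes were higher in every mouse, 14 were called, and their median was 1.24, 1.21, 1.78 and 1.08. Mki67, the Ki-67 antigen, read 1031, 860, 2950 and 6383 SPM against 469, 401, 812 and 2477 SPM (log2 difference 1.36 ± 0.35). The called genes were Mki67, Ccna2, Ccnb1, Aurkb, Birc5, Plk1, Mcm3, Mcm4, Mcm6, Mcm7, Rrm1, Rrm2, Tk1 and Ccne1, which cover replication and mitosis. The count was 17 with median-of-ratios factors and 26 with total signal. Of 20 translation and nucleolus genes, 18 passed the filter, of which 15 were higher in every mouse and 1, Nolc1, was called, with Npm1 at 1299, 1178, 548 and 383 SPM against 376, 416, 289 and 270 SPM. Of 37 nuclear genes of oxidative phosphorylation, 29 were higher in every mouse and 1 (Uqcrc1) was called. Over all genes 3.22% were called higher, so with TMM the translation and oxidative phosphorylation counts did not stand out. How many of all genes were higher in every mouse was not counted, here or for the other lists. With median-of-ratios factors 2 translation and 2 oxidative phosphorylation genes were called, and with total signal 9 and 8. Of 19 antioxidant genes, 3 were higher (Prdx2, Prdx3 and Blvrb) and 1 was lower (Hmox1, which breaks heme down), and with total signal 7 were higher. Of 17 glycolysis genes, Pklr and Pfkm were higher (Pfkm was not called with total signal), and Hk2 and the glucose transporter Slc2a3 lower.

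**Figure D2:**
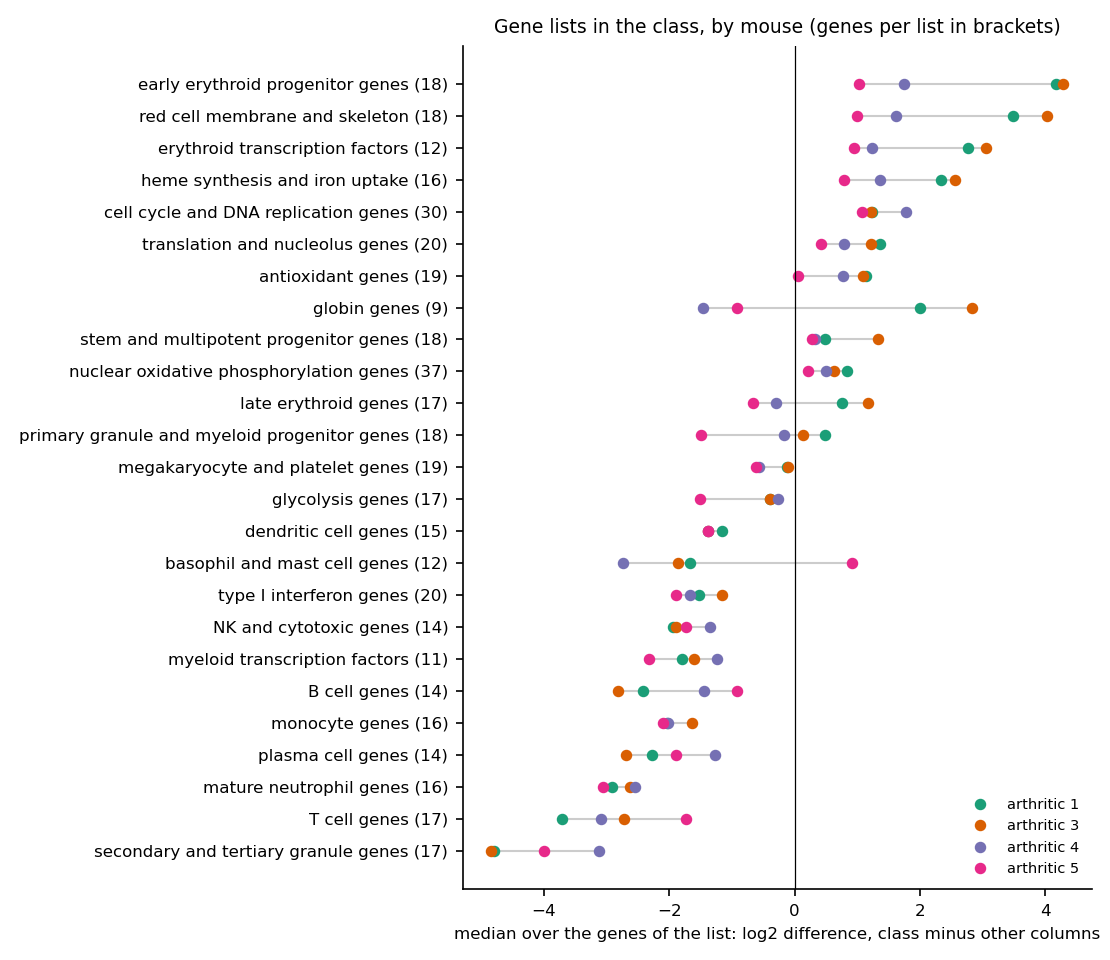
Median log2 difference between the class and the other columns of the same mouse over each gene list, with 1 point for each of 4 arthritic mice and the number of genes in brackets. Early erythroid genes lie between 1.03 and 4.29 and secondary granule genes between -4.84 and -3.12, while globin genes lie on both sides of 0.

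Genes of the primary granule and the myeloid progenitor were not higher in the class as a whole. Of 18 in the table, 17 passed, 0 were called higher and 4 lower (Serpinb1a, Ctsc, Fcnb and Hp, of which Fcnb and Hp alone were called with total signal), and the median was 0.48, 0.13, -0.18 and -1.49 in mice 1, 3, 4 and 5. The direction of this list depended on the scaling, as the median of its mean differences was -0.28 with TMM factors and 0.17 with total signal. Mpo (chromosome 11, 87793581 to 87804413, plus strand) read 1172, 591, 627 and 264 SPM in the class and 319, 125, 226 and 473 SPM in the other columns. It was thus higher in the class of mice 1, 3 and 4 and lower in that of mouse 5, and the mean difference of 1.18 was smaller than its SD of 1.39 (n = 4). Elane (chromosome 10, 79886247 to 79888215, plus strand) read 1336, 666, 502 and 282 SPM against 403, 172, 253 and 614 SPM, a difference of 0.88 ± 1.4. Prtn3, named here after its values were seen, read 573, 295, 317 and 145 SPM against 209, 104, 143 and 300 SPM. Ctsg, likewise, read 324, 195, 161 and 51.7 SPM against 66.7, 26.9, 61.6 and 123 SPM. All 4 proteases turned over in mouse 5, in which granulocytes made up 86.7% of columns. Against granulocytes alone, Mpo (264 against 518 SPM) and Elane (282 against 675 SPM) were also lower in the class of mouse 5. Both were higher than in granulocytes in the class of mice 1, 3 and 4. The part of the makeup of the other columns in this turn was not tested.

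High shares of the granule proteases stood in few columns. Counting a column as carrying a group if that group took at least 0.1% of its signal, 152 of 193 carried early erythroid genes only, 25 the 4 proteases only, 13 both and 3 neither. A column under that floor can still hold some signal of a group, and Mpo had signal in 54.2%, 43.4%, 66.7% and 54.5% of the class columns of mice 1, 3, 4 and 5. The proteases together exceeded the 18 early erythroid genes in 25 columns: 17 in arthritic mouse 1, 6 in mouse 3, 2 in mouse 4 and 0 in mouse 5. These held 23 distinct profiles. Only 7 of the 193 columns lay within a factor of 2 of equality, so few depend on where the line is drawn. The median share of the proteases was 1.96% of signal in the 25 columns and 0.00675% in the other 168, and that of Car1 and Car2 together 0.0106% and 0.841%, values on which the division was made. The total signal was alike in range, with a median of 25079 in the 25 columns and 18308 in the others.

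**Figure D3:**
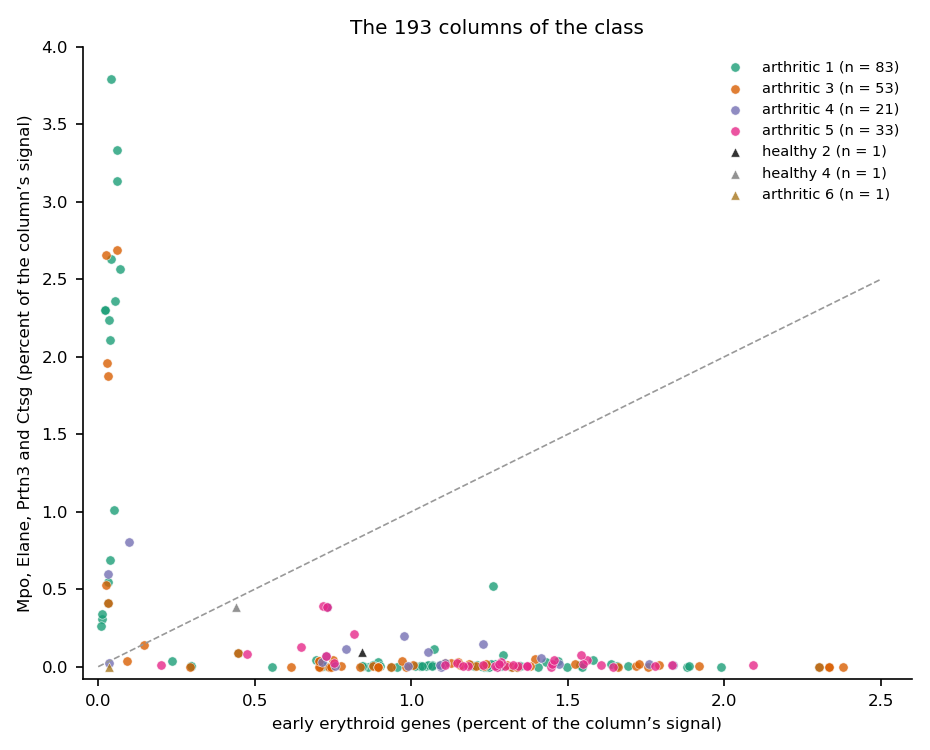
Each point is 1 of the 193 columns of the class, placed by the share of its signal in 18 early erythroid genes (x axis, percent) and in Mpo, Elane, Prtn3 and Ctsg (y axis, percent), with colours for mice and a dashed line of equality. The points lie along the axes: 25 columns lie above the line, none of them from arthritic mouse 5, and 13 columns hold at least 0.1% of both groups.

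The 25 columns can be compared with the other columns of the class and with granulocytes in arthritic mice 1 and 3, which held 17 and 6 of them. The columns were chosen on Mpo, Elane, Prtn3 and Ctsg against the early erythroid genes, so the levels of Mpo and Car1 in them restate the choice. In signal per 1000000 without TMM scaling, Mpo stood at 7043 and 6234 in these columns of mice 1 and 3, at 61.0 and 53.9 in the remaining class columns and at 541 and 338 in granulocytes. Car1 stood at 14.6 and 0 there, at 2132 and 1891 in the remaining class columns and at 49.9 and 23.8 in granulocytes. Ltf, the secondary granule lactoferrin, was low in both sets of class columns, at 68.0 and 61.6 and at 99.5 and 63.0, against 7610 and 7185 in granulocytes. Ltf was not used in the choice, and both sets of class columns lay far below granulocytes for it. Cd34, a stem and progenitor surface protein, stood at 146 and 115 in them, 9.76 and 21.3 in the remaining columns and 5.30 and 8.40 in granulocytes. Kit, the stem cell factor receptor, stood at 80.2 and 92.4, 87.3 and 79.3, and 7.57 and 3.73, so it did not tell the class columns apart. Myb, a progenitor transcription factor, stood at 481 and 500 in the protease columns, 214 and 238 in the rest and 53.9 and 34.1 in granulocytes.

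Other lists also differed between the protease columns and the remaining class columns of the same mouse, given as medians over columns of arthritic mice 1 and 3 with no test. Monocyte genes took 0.315% and 0.336% of signal in the protease columns of mice 1 and 3 against 0.0156% and 0.0199% in the rest. NK and cytotoxic genes took 0.0704% and 0.0453% against 0.00290% and 0.00345%. Myeloid transcription factors took 0.108% and 0.0857% against 0.0139% and 0.0168%, and mature neutrophil genes 0.0565% and 0.0670% against 0.0308% and 0.0317%. Secondary and tertiary granule genes took 0.997% and 0.911% against 0.594% and 0.538%, although Ltf alone was not higher. Their median over all granulocyte columns was 10.3%. Stem and multipotent progenitor genes (0.0968% and 0.123% against 0.0464% and 0.0560%) and glycolysis genes (0.203% and 0.182% against 0.120% and 0.117%) were higher in the protease columns too. Red cell membrane genes took 0.0549% and 0.0619% against 0.261% and 0.225%, and heme genes 0.0630% and 0.0671% against 0.262% and 0.226%. Translation genes (1.11% and 1.03% against 1.39% and 1.31%) and oxidative phosphorylation genes (2.02% and 1.89% against 2.28% and 2.08%) were lower in the protease columns of both mice by smaller factors. With the 25 columns left out, a choice made after the values were seen, 309 genes were higher and 1137 lower in the class than in the other columns. Mpo then differed by -1.24 and Elane by -1.65 on the log2 scale, averaged over the 4 mice, but a fall of these genes follows from the choice of the columns left out.

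Shares of columns with any signal told the same genes apart. After each column was thinned to 6000 units of signal (no column was shallower), Car1 was found in 79.5%, 86.8%, 71.4% and 63.6% of class columns of mice 1, 3, 4 and 5, and in 7.77%, 4.02%, 19.2% and 29.0% of granulocyte columns. Before thinning, the shares were 79.5%, 88.7%, 81.0% and 78.8%, and 11.5%, 8.05%, 33.6% and 53.1%. Mpo was found in 38.6%, 34.0%, 47.6% and 33.3% of thinned class columns and in 29.4%, 29.7%, 31.7% and 40.2% of thinned granulocyte columns. Elane was found in 33.7%, 18.9%, 71.4% and 48.5%, and in 32.5%, 31.3%, 40.0% and 45.5%. In B columns of mice 1 and 3, which should lack these transcripts, the thinned shares were 2.92% and 4.91% for Car1, 6.2% and 4.46% for Mpo and 3.28% and 4.69% for Elane, at median depths of 8406 and 9243. All class and granulocyte shares of Mpo and Elane in mice 1 and 3 lay above this background, whereas the Car1 share of granulocyte columns in mouse 3 (4.02%) lay within it. So a column of the class held Car1 more often than a granulocyte column in each mouse, while for Mpo and Elane the order of the classes changed with the mouse.

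Multipotent progenitor genes were higher in part and myeloid transcription factors were lower. Of 18 stem and multipotent genes, 10 passed the filter, and Sox4 was called higher (62.5, 74.7, 76.8 and 75.0 SPM against 24.6, 17.4, 32.0 and 36.1 SPM). With either other scaling, 3 of the 18 were called higher. Kit read 68.8, 61.7, 30.7 and 20.7 SPM against 7.44, 4.20, 12.2 and 22.9 SPM, and Myb 214, 205, 133 and 119 SPM against 40.2, 21.2, 47.9 and 68.0 SPM. Kit was thus higher in the class of mice 1, 3 and 4 only, and Myb in all 4 mice, though below the threshold in mouse 5. Of 11 myeloid transcription factors, 9 passed and 6 were called lower: Cebpe, Cebpb, Cebpd, Spi1, Klf4 and Nfil3. With total signal 2 of them, Cebpd and Spi1, were still called. By class, 6 of the list were called lower against granulocytes, 0 against foxP3 columns and 1 against B columns. Spi1, which encodes PU.1, read 33.2, 25.3, 56.3 and 36.2 SPM against 156, 103, 179 and 187 SPM. Irf8, which drives the monocyte and dendritic fates, differed by -1.05 ± 0.54 and was not called.

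Compared with the other columns of the same mouse, genes of mature neutrophils and of other lineages were low in the class. All 17 secondary and tertiary granule genes in the table were called lower, as were 13 of 16 mature neutrophil genes (11 with total signal). Against foxP3 columns 0 of either list were called lower, and against B columns 1 of each. Secondary granule genes took a median of 0.760% of signal in class columns and 10.3% in granulocyte columns. In dendritic, foxP3, B and CD4 columns they took 1.52%, 0.399%, 0.386% and 0.105%. S100a8, a subunit of calprotectin, read 3975, 2792, 6967 and 7081 SPM against 103146, 66272, 50544 and 103839 SPM (log2 difference -4.00 ± 0.84). Lyz2, S100a9 and Ngp differed by -3.83, -4.52 and -4.26. Among the 15 genes most steadily lower were C5ar1 (the C5a receptor, at most 2.59 SPM in the class), Chil4, Serpinb10, Lyz1, Apobr and Evl. Olfm4, a specific granule protein, was listed at 0 in the class of all 4 mice and at 33.7, 16.2, 22.3 and 33 SPM in their other columns. The other lower genes were of antibody-secreting cells: Igha, Jchain and 6 kappa segments (Igkv8-30, Igkv1-135, Igkv3-12, Igkv6-15, Igkj1 and Igkv12-41), whose near-identical sequences make single segments uncertain. Evl, Igkv3-12, Igkv6-15 and Igkv12-41 were not called with total signal.

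Markers of other cell types were checked in the same way. Genes called lower are given with the number past the filter in brackets, where 10.9% of all genes tested were called lower. They were 8 of 16 monocyte genes (13), 4 of 15 dendritic cell genes (8) and 5 of 14 B cell genes (11). So were 5 of 14 plasma cell genes (10), 12 of 17 T cell genes (13) and 3 of 14 NK and cytotoxic genes (5). None of these lists had a gene called higher. With total signal 5 monocyte, 3 dendritic cell, 4 B cell, 2 plasma cell, 8 T cell and 2 NK and cytotoxic genes were lower. Of the megakaryocyte list, 3 of 19 genes passed the filter and 2 were lower (Itgb3 and Thbs1, the second alone with total signal), with Pf4, platelet factor 4, at 4.30, 0.00, 46.1 and 23.3 SPM in the class. Basophil genes were uneven: Mcpt8, a basophil protease, read 36.7, 2.06, 92.2 and 419 SPM in the class against 115, 65.3, 467 and 172 SPM elsewhere, and Prss34 read 3.91, 4.8, 15.4 and 150 SPM against 41.6, 21.9, 155 and 26.6 SPM. Both were higher in the class of mouse 5 alone, where 1 column gave 1.04% of its signal to basophil genes. Of 20 type I interferon genes, 7 were lower, among them Ifit1, Ifit3, Oas1a, Oas2, Rtp4 and Ifi27l2a. The count was 5 with median-of-ratios factors, where Ifit3 and Oas1a were not called, and 2 with total signal, where Ifit1, Ifit3, Oas1a, Oas2 and Rtp4 were not called. By class, 10 interferon genes were lower against granulocytes, 3 against foxP3 columns and 2 against B columns. Rsad2 read 17.6, 21.9, 205 and 492 SPM in the class, so mice 4 and 5 stood above mice 1 and 3, as they did in the other columns (27.6, 22.5, 372 and 988 SPM).

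Across the 6 largest classes, Car1 was highest in the progenitor class, followed by granulocytes and foxP3 cells and then by B, dendritic and CD4 cells. It averaged 946 ± 436 SPM in the progenitor class (SD, n = 4 mice), 100 ± 63.9 in granulocytes and 59.3 ± 35.5 in the foxP3 class, whose ranges overlapped each other but not that of the progenitor class, and 4.48 ± 5.70 in B cells. Klf1 averaged 176 ± 86.2 SPM in the progenitor class and 40.5 ± 43.9 in granulocytes. The proteases were shared by progenitors and granulocytes: Mpo averaged 664 ± 376 and 522 ± 138 SPM, Elane 696 ± 454 and 679 ± 177, Prtn3 332 ± 177 and 363 ± 85.8 and Ctsg 183 ± 112 and 118 ± 27.1, and all ranges overlapped. The foxP3 class held Mpo at 42.5 ± 34.4 SPM and Elane at 14.5 ± 13.7 SPM.

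**Figure D4:**
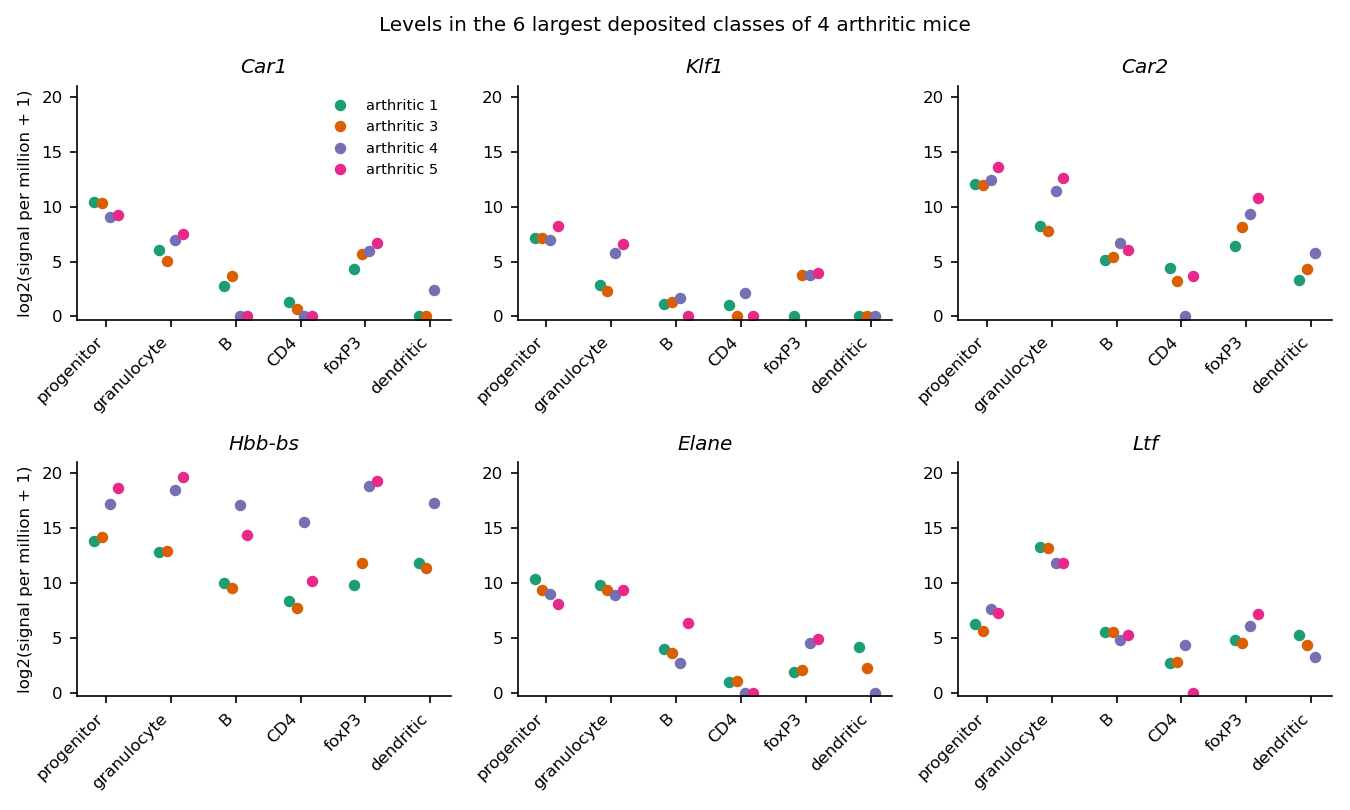
Levels of 6 genes, as log2(SPM + 1), in the 6 largest classes, with 1 point for each of arthritic mice 1, 3, 4 and 5 (dendritic: 3 mice). Car1 and Klf1 are highest in the progenitor class, Elane overlaps between progenitors and granulocytes, Ltf is highest in granulocytes, and Hbb-bs is high in every class of arthritic mouse 4.

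Compared with granulocytes of the same mouse, 225 of 9189 genes were higher in the class and 1290 lower. Scaling mattered again: 14.9% of called genes were higher with TMM, 27.9% (405 and 1047) with median-of-ratios factors and 73.5% (1448 and 522) with total signal. Against a background of 2.45% higher and 14.0% lower, 4 of 18 early erythroid genes, 4 of 12 erythroid transcription factors, 4 of 16 heme genes, 4 of 18 membrane genes and 4 of 30 cell cycle genes were called higher. In the same order these counts were 11, 4, 6, 9 and 5 with median-of-ratios factors and 13, 8, 12, 14 and 18 with total signal. Lower were 17 of 17 secondary granule, 15 of 16 mature neutrophil, 13 of 16 monocyte and 10 of 20 interferon genes, and with total signal 17, 13, 7 and 3. Hist1h3e, a replication-dependent histone, was evenly higher across the mice, at 12.9, 26.0, 30.7 and 31.0 SPM against 2.40, 5.39, 7.58 and 6.77 SPM. Cib2 was evenly lower, at 1.56, 1.37, 0.00 and 0.00 SPM against 78.7, 76.8, 33.5 and 29.4 SPM. Mpo differed by 0.19 ± 0.79 and Elane by -0.15 ± 0.77, within their spread over mice.

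Compared with the foxP3 class, 593 of 8574 genes were higher and 390 lower (6.92% and 4.55%). With total signal the counts were 661 and 283, so the share of called genes that were higher moved from 60.3% to 70.0%. Higher were 15 of 18 early erythroid genes, 9 of 12 erythroid transcription factors, 12 of 16 heme genes, 14 of 18 membrane genes, 5 of 18 primary granule genes and 6 of 30 cell cycle genes (3 with either other scaling). Globin genes were called in neither direction, and 1 was higher with total signal. Mpo read 21.4, 12.7, 46.3 and 89.5 SPM and Elane 2.67, 3.17, 22.2 and 29.8 SPM in the foxP3 class of mice 1, 3, 4 and 5, and both were called higher in progenitors. Gdpd1, a phosphodiesterase of lysophospholipids, was listed at 0 in the foxP3 class of all 4 mice and at 40.6, 24.7, 33.3 and 54.3 SPM in the progenitor class. Lower were 15 of 17 T cell genes and 7 of 14 NK and cytotoxic genes, among them Trbc2 (26.2, 48.0, 28.2 and 15.5 SPM against 964, 995, 907 and 380 SPM) and Gzma, granzyme A (at most 7.68 SPM against 163 to 283 SPM).

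Compared with B cells, 802 of 8865 genes were higher and 696 lower (9.05% and 7.85%). Higher were 13 of 18 early erythroid genes, 9 of 12 erythroid transcription factors and 12 of 16 heme genes (14 with total signal). So were 15 of 18 membrane genes and 8 of 18 primary granule genes (4 with total signal). Of 30 cell cycle genes, 25 were higher (27 with total signal). Cldn13, a claudin of erythroblasts in the mouse, read 184, 157, 277 and 613 SPM against 0.576, 1.08, 0.00 and 0.00 SPM, and Add2, the beta subunit of adducin, read 117, 127, 171 and 311 SPM against 0.576, 0.617, 0.00 and 0.00 SPM. Neither gene reached 2 SPM in B cells of any of these mice. Lower were 12 of 14 B cell genes, 9 of 14 plasma cell genes and 15 of 17 T cell genes, with Cd79b, part of the B cell receptor, at 48.9, 46.6, 76.8 and 51.7 SPM against 302, 331, 349 and 231 SPM. With total signal the share of called genes that were higher fell from 53.5% to 44.2%. The comparisons with granulocytes, foxP3 and B columns share the progenitor columns and are not independent.

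Genes of erythroid maturation differed in level between the mice within the class. Globin genes took a median of 0.925% of the signal of a class column in arthritic mouse 1, 1.20% in mouse 3, 22% in mouse 4 and 42.6% in mouse 5, and at least 10% in 63 of 193 columns (8, 10, 14 and 30 in these mice, and 1 in healthy mouse 4). Membrane genes took 0.211%, 0.208%, 0.607% and 0.825%, heme genes 0.209%, 0.201%, 0.441% and 0.575%, late erythroid genes 0.201%, 0.196%, 0.447% and 0.685% and cell cycle genes 0.593%, 0.538%, 1.01% and 1.00%. Translation genes went the other way, at 1.36%, 1.29%, 0.616% and 0.138%, as did oxidative phosphorylation genes at 2.16%, 2.02%, 1.35% and 0.617%. Early erythroid genes took 1.05%, 0.969%, 0.989% and 1.29%. Since globin is part of these totals, the medians were also taken with globin left out of the total: early erythroid genes then took 1.07%, 0.983%, 1.20% and 2.84% in mice 1, 3, 4 and 5, so mouse 5 stood apart. Membrane genes took 0.212%, 0.210%, 0.685% and 1.85% of that total, heme genes 0.211%, 0.202%, 0.536% and 1.29% and cell cycle genes 0.595%, 0.545%, 1.37% and 1.97%. Translation genes, at 1.36%, 1.29%, 0.685% and 0.294%, and oxidative phosphorylation genes, at 2.24%, 2.19% and 1.64% in mice 1, 3 and 4 and a little less in mouse 5, were still lower in mice 4 and 5. Globin moved in the same order in other classes: its median was 0.426%, 0.321%, 32.9% and 54.8% in granulocyte columns and 0.0220%, 0.0228%, 45.7% and 60.3% in foxP3 columns of mice 1, 3, 4 and 5. The part of that common signal in the class values was not tested.

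**Figure D5:**
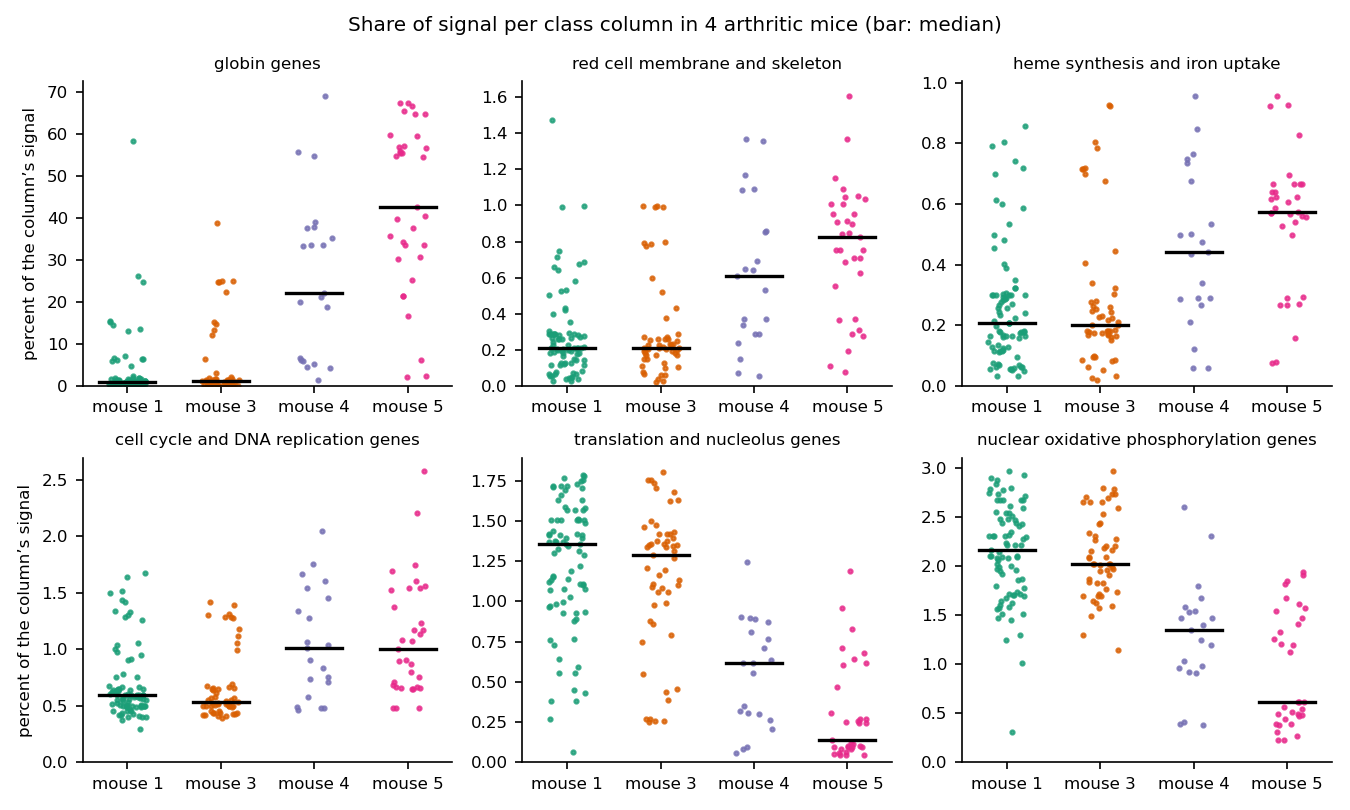
Share of signal (percent) per class column in 6 gene lists, with 1 point for each column of arthritic mice 1, 3, 4 and 5 and a bar at the median. Globin, membrane and heme genes have higher medians in mice 4 and 5 than in mice 1 and 3, and translation and oxidative phosphorylation genes lower ones.

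Within the 193 columns, the lists moved together in a way that can be described but not tested, since columns share mice, depth and in part profiles. Globin share and membrane share had Pearson's r of 0.804, and 0.925 when globin was left out of the total. With globin left out, both lists, globin included, were divided by the signal that remained. A column with little remaining signal thus has both values raised, and the part of this in r was not tested. Within arthritic mice 1, 3, 4 and 5 r was 0.895, 0.889, 0.611 and 0.663 as deposited and 0.974, 0.938, 0.828 and 0.884 with globin left out. By ranks the relation was looser, most of all in mouse 1. Spearman's rho with globin left out was 0.796 over all columns and 0.538, 0.754, 0.760 and 0.842 within these mice. Globin and translation shares had r of -0.842, or -0.813 with globin left out of the total, and the second was -0.681, -0.795, -0.708 and -0.859 within these mice. Globin and cell cycle shares had r of 0.545 as deposited (0.726, 0.791, 0.203 and 0.144 within mice 1, 3, 4 and 5) and 0.846 with globin left out (0.933, 0.894, 0.703 and 0.626), so in mice 4 and 5 the relation depends on the total used. For oxidative phosphorylation the value fell from -0.818 to -0.572 when globin was left out over all columns, and was 0.003 within mouse 3. Early erythroid and protease shares had r of -0.547 and Spearman's rho of -0.478, or -0.425 and -0.336 with globin left out of the total.

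The 3 columns outside these mice did not look alike. The column of healthy mouse 2 (18742 units of signal) held 25 units of Car1, 100 of Car2, 9 of Mpo, 7 of Elane and 3 of Klf1. The column of healthy mouse 4 (23787 units) held 11 of Car1, 83 of Car2, 43 of Mpo, 24 of Elane, 15 of Prtn3, 10 of Ctsg, 34 of Mcpt8 and 18 of Prss34, so erythroid, granule and basophil genes stood side by side in it. The column of arthritic mouse 6 (8796 units) held 0 of Car1, 2 of Car2, 0 of Mpo and 0 of Elane, with 65 units of S100a8, and so carried few of the given markers. With 1 column in each of these mice, the class itself could not be compared between arthritic and healthy mice.

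Progenitor transcripts outside the class were compared between the groups instead, with the 193 columns left out. In the limma fit, 0 of 8359 genes were higher in arthritic mice and 2 were lower (0% and 0.0239%), while 1191 had an unadjusted p under 0.05. Those 2 were Mir6236 (log2 difference -2.13, SE 0.25, limma adjusted p = 0.0340) and Mir6240 (-1.93, SE 0.26, adjusted p = 0.0448), both microRNA annotations, and neither is in a list used here. Mir6236 read 7201, 7665, 5699.5 and 9005 SPM in healthy mice 1 to 4 and 1789, 1461, 2246, 1115 and 1977 SPM in arthritic mice 1, 3, 4, 5 and 6, with no overlap. Car1 read 25.3, 8.35, 65.9 and 140 SPM in healthy mice 1 to 4 and 26.0, 13.6, 65.2, 124 and 14.3 SPM in arthritic mice 1, 3, 4, 5 and 6, and the groups overlapped (log2 difference -0.17, SE 0.82, limma adjusted p = 0.928). Car2 differed by -0.08 (SE 1.34, limma adjusted p = 0.979). Mpo read 71.4, 4.0, 22 and 128 SPM in healthy and 263, 107, 184, 359 and 25.1 SPM in arthritic mice (log2 difference 2.10, SE 0.95, limma adjusted p = 0.349), and Elane differed by 1.62 (SE 1.01, adjusted p = 0.444). None of the 4 passed the threshold, and with SEs near 1 on the log2 scale this does not show that the groups were alike. The count of 2 became 0 when healthy mouse 2, 3 or 4 or arthritic mouse 1, 3 or 4 was left out, and 83 without arthritic mouse 6.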

How the data were processed

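Per the labels, Seq-Well read 1 held the barcode and read 2 the transcript from its polyA tail, and the authors followed the Drop-seq core computational protocol on GRCm38.p5. No source used here states the aligner, the cell filter or the way classes were named. The deposited values (signal) are whole numbers per gene and barcode that the authors did not scale to a common total and that are not treated as counts, because columns repeat and appear to pool similar cells. A second deposited table, of joint tissue, was not used here.

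Signal was summed per mouse and class (at least 5 columns), brought to a common scale by TMM (trimming 30% of ratios and 5% of levels) and given per 1000000 (SPM), and logs are log2(SPM + 1). Genes reaching 10 SPM in as many sums as there were mice were kept. A gene was called if the log2 difference from the other columns of the same mouse was at least 1 in all 4 mice, a description without a test. Arthritic and healthy mice were compared, without the class, with limma 3.58.1 (trend, R 4.3.3) and a Benjamini-Hochberg adjusted p under 0.05, in place of a count test that had been planned. Class shares were compared by a two-sided exact permutation test, whose smallest possible p is 0.00794. The fit was tested on simulated data. Other steps used Python 3.11.15 with numpy 2.4.6, pandas 2.3.3, scipy 1.17.1 and matplotlib 3.10.9.

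The members, the 26 gene lists and the rule for named genes were chosen with earlier results of these data known. It takes 15 genes per direction by the largest smallest difference and a mean of at least 20 SPM, 5 per direction against each other class and 4 per list by level, and the text gives part of them. Lists of called members are whole unless they open with "among them". Some genes that the rule takes are not reported here. Replicates are the mice, which share some columns, so p-values may be too small. Gene positions are from GENCODE M21 (GRCm38). No doublets were removed. Alternatives covered scaling, pseudocount, filter, threshold, identical columns, weights, globin, the replicate block and leaving out each mouse.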

Additional observations from a re-analysis of the deposited data

Results flagged for a closer look

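Of 166 groups of values with 4 or more mice, 15 held a mouse far from the others by a rule on gaps (Dixon's Q). The rule flags about 1 in 20 by chance only where values are independent and normally distributed. These values are unlogged and the groups share mice, so no excess over chance can be read from the count. Arthritic mouse 5 stood above the other 3 mice in the class for several erythroid genes: Tmem56 (67.3 SPM, next value 43.5), Slc38a5 (85.4, next 41.0), Klf1 (305, next 140), Lmo2 (279, next 118) and Blvrb (1276, next 533). It also stood above them for the basophil protease Prss34 (150 SPM, next 15.4), which in that mouse came with a column rich in basophil genes. Sox4 was lowest in arthritic mouse 1 (62.5 SPM, next 74.7), although the whole range was narrow.

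Arthritic mouse 4 was highest for Cd79b (76.8 SPM, next 51.7) and for the median share of monocyte genes per class column (0.0445%, next 0.0201%). Immunoglobulin segments near 0 in the class had a single mouse with some signal. In arthritic mouse 3 these were Igkv8-30 (6.17 SPM) and Igkv12-41 (0.685 SPM). In arthritic mouse 1 they were Igkv1-135 (6.64 SPM), Igkv6-15 (6.25 SPM), Igkv8-21 (0.391 SPM) and Ighj3 (1.17 SPM).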

How the results depend on the processing

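The share difference of 3.96 points stayed positive in every alternative but lost p under 0.05 in most. It was 14.7 without the granulocyte class (p = 0.111) and 4.20 with identical columns of a mouse counted once (p = 0.0635, exact permutation tests). Without columns identical to another mouse's it was 3.66 (exact permutation p = 0.119), and with each mouse left out 3.10 to 5.09. The replicate block, which pairs mice of the same number across the groups, gave 4.76 (exact permutation p = 0.25). That p is the smallest that its few pairs can give, so this setting could not reach 0.05. The counts of called genes moved with the settings. Against other columns, total signal gave 967 higher and 527 lower, median-of-ratios factors 515 higher, no filter 1781 lower, classes with equal weight 669 higher, and a log2 threshold of 2 gave 6 higher and 333 lower. With each mouse left out, 272 to 486 were higher and 1004 to 1529 lower, the highest counts without mouse 5. Without mouse 3, 451 were higher. Without columns identical to a column of another class or mouse, 227 were higher and 1059 lower. The counts higher against granulocytes, foxP3 and B columns were then 160, 509 and 607, against 225, 593 and 802 with all columns. Against granulocytes, total signal gave 1448 higher and 522 lower, median-of-ratios factors 405, a pseudocount of 5 129 and no filter 347 higher, and leaving out a mouse 223 to 481 higher, the most without mouse 5. Against foxP3, no filter gave 1197 higher, and leaving out a mouse 485 to 782 lower, with 601 without mouse 4 and 782 without mouse 5. Against B cells, no filter gave 1105 lower, and leaving out a mouse 778 to 1174 lower, the most without mouse 5. The share of early erythroid genes, 1.07% of a class column, was 1.52% with globin left out of the total.

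The limma count of 2 genes became 20 with total signal, 6 with a pseudocount of 5, 0 without a filter, 0 with weights for each mouse, 7 with globin left out, 4 with all columns, 46 with the replicate block and 0 to 83 with each mouse left out. Mice share only a number across the groups, so the block pairs unrelated animals. The Car1 difference of -0.17 turned to 0.95 with all columns, and leaving out each mouse gave -0.86 to 0.46, above 0 once healthy mouse 3, healthy mouse 4, arthritic mouse 3 or arthritic mouse 6 was dropped. That of Car2, -0.08, turned to 0.76 with all columns, and leaving out each mouse gave -1.15 to 0.70. The causes were not tested. Over 15 settings, the mean difference of the class from other columns ranged from 3.43 to 4.74 for Car1, 3.17 to 4.46 for Pklr and 2.97 to 4.25 for Klf1. Depth limits what can be said of healthy mice, which held 2 columns of the class together.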
